A study of Rattus norvegicus with 9 samples.

Results

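The genes described are 10 markers of blood vessel cells, 6 that mark endothelial cells (*Pecam1*, *Cdh5*, *Tie1*, *Tek*, *Emcn* and *Vwf*) and 4 that mark pericytes (*Rgs5*, *Kcnj8*, *Abcc9* and *Notch3*). They were chosen by gene symbol, and 9 of the 10 symbols were found among the 32883 genes of the tables, while *Pecam1* was not analysed here. The expression filter of edgeR, which needs about 10 counts or more in at least 3 libraries, was passed by 8 of the 9 genes and by 13273 genes in all, and *Emcn* did not pass it. RNA was sequenced from 9 libraries of cultured rat fibroblasts, with 3 libraries each of Fb-Epn from the epineurium (the outer sheath of a nerve), Fb-Par from the nerve parenchyma within it, and Fb-Skn from skin. The rats were wild type, male and 10 weeks old, of the Lewis strain that the study used throughout, and no group was treated. Sciatic nerves of 2 rats gave both nerve-derived types and the abdominal skin of 1 other rat gave Fb-Skn, so the 3 libraries of a type cannot be 3 animals, and every p-value measures the spread between these libraries, which may be technical. The cells were dissociated with enzymes, seeded in uncoated flasks and passaged 1 time, 3 to 4 days after seeding. By immunolabelling, the study found all cells positive for type I collagen and Thy1, and negligible labelling of Schwann cell and endothelial markers. Fb-Skn differs from the others in tissue, rat and body site at the same time, and these cannot be told apart.

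Endothelial cells form the inner lining of blood vessels, and pericytes are the mural cells that wrap capillaries and lie against that lining. Peripheral nerve holds vessels in its epineurium and a capillary bed among its axons, and skin holds vessels in its dermis. The markers cover the junctions of endothelial cells, the receptors by which they read angiopoietins, their adhesive and stored glycoproteins, and, in mural cells, a regulator of G proteins, the subunits of a potassium channel and a Notch receptor.

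Levels are given as the deposited TPM, which divides each count by gene length before scaling the library, and differences were tested on the counts with edgeR. A gene is called where its Benjamini-Hochberg adjusted p over all tested genes was under 0.01, and DE where its log2 fold change was also above 2 or below -2. Against Fb-Skn, 8 of the 8 tested markers were higher in Fb-Epn, where 23.0% of all tested genes were called higher, and 0 of 8 were higher in Fb-Skn, where the share was 20.9%. In Fb-Par, 6 of the 8 were higher than Fb-Skn against 23.2% of all tested genes, and 0 were higher in Fb-Skn against 22.4%. Most of the markers could hardly have gone the other way, since *Cdh5*, *Tie1*, *Vwf*, *Rgs5*, *Kcnj8* and *Abcc9* had under 10 counts in every Fb-Skn library and passed the filter through the nerve-derived libraries. Of all 761 tested genes that low in Fb-Skn, 71.4% were called higher in Fb-Epn and 68.2% in Fb-Par, so only *Tek* and *Notch3* were free to go either way. Between the nerve-derived types 4 of the 8 were called, 2 in each direction, and *Tek*, *Vwf*, *Kcnj8* and *Abcc9* were not. *Cdh5* and *Tie1* were higher in Fb-Epn, where the share over all tested genes was 20.2%, and *Rgs5* and *Notch3* were higher in Fb-Par, where it was 18.6%. For *Cdh5* that share is no fair measure, since it had at most 3 counts in any library outside Fb-Epn and could be tested only through Fb-Epn. The same limit holds for *Vwf*, which had under 10 counts in every library outside Fb-Epn. The 3 comparisons share their libraries pairwise and are not independent of each other. In bulk RNA, fewer cells of a type and less RNA per cell cannot be told apart, and this holds for every marker below. With library size alone as the scaling, the share of all called genes that were higher in the nerve-derived type went from 52.3% to 63.7% in Fb-Epn against Fb-Skn, and in Fb-Par against Fb-Skn from 50.8% to 61.9%. With limma on log2(TPM + 1) these shares were 69.0% and 66.9%, and the median log2 fold change of all tested genes moved to 0.126 and 0.123. Every marker called under these settings kept its direction, and the call of *Vwf* that limma lost is given below.

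Summed over the 5 endothelial markers with a row, TPM was 14.9, 15.5 and 14.7 in the 3 Fb-Epn libraries, 11.4, 11.6 and 10.4 in Fb-Par, and 1.25, 1.57 and 0.938 in Fb-Skn. The 4 pericyte markers summed to 13.3, 15.5 and 10.8 TPM in Fb-Epn, 86.6, 90.6 and 92.5 in Fb-Par, and 1.18, 1.87 and 1.65 in Fb-Skn. The endothelial sum thus had its highest libraries in Fb-Epn and the pericyte sum in Fb-Par, with no overlap between any of the types. Most of the first sum was *Tek* and most of the second in Fb-Par was *Notch3*. The fibroblast list gives the scale, since *Col1a1*, the chain of type I collagen that leads it, had a mean TPM of 15869 for Fb-Epn, 13724 for Fb-Par and 21077 for Fb-Skn. Placed among all tested genes by mean TPM, *Cdh5* stood at percentile 9.0 and *Tie1* at 17.6 in Fb-Epn, and *Notch3* at percentile 82.6 in Fb-Par.

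**Figure D1:**
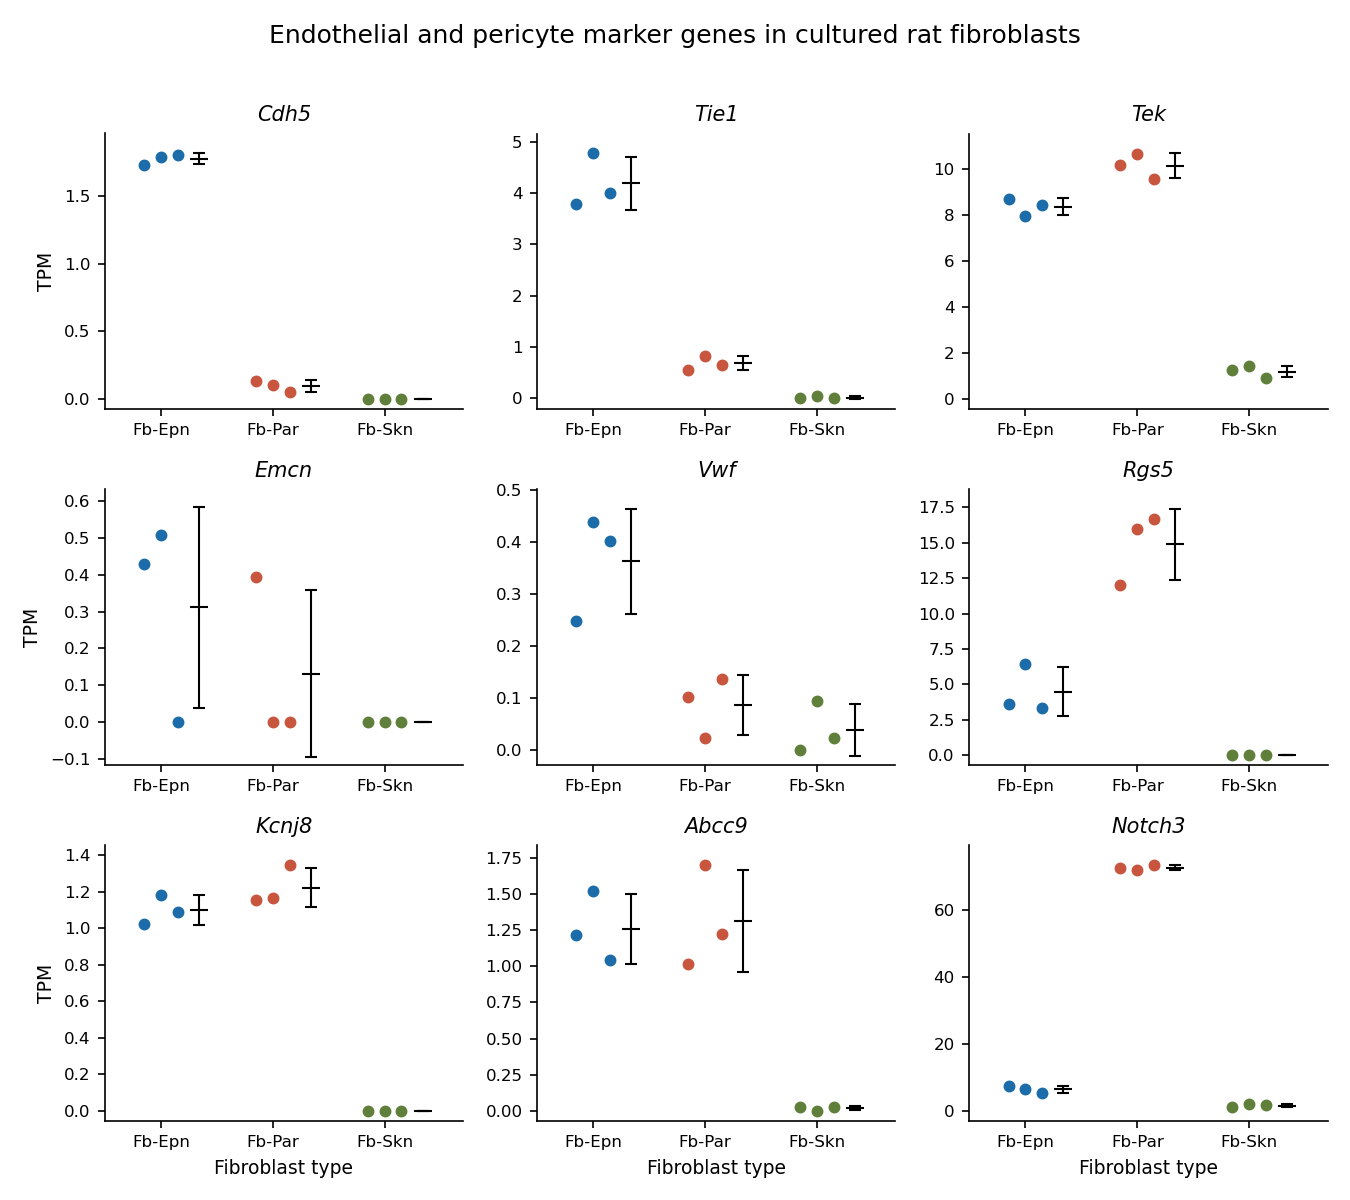
Deposited TPM of 9 endothelial and pericyte markers (vertical axes, TPM) by fibroblast type (horizontal axes). Points are single libraries, 3 of each type, and the black marks give their mean and SD. *Cdh5* and *Tie1* lie highest in Fb-Epn, *Rgs5* and *Notch3* lie highest in Fb-Par, and *Cdh5*, *Emcn*, *Rgs5* and *Kcnj8* lie at 0 in every Fb-Skn library.

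*Cdh5* (ENSRNOG00000013324, chromosome 19 of rn6, 1023683 to 1074365, minus strand) encodes VE-cadherin, the adhesion molecule of the junctions between endothelial cells. Its TPM was 1.73, 1.79 and 1.81 in the Fb-Epn libraries, from 35, 41 and 37 counts. In Fb-Par it was 0.136, 0.105 and 0.0498, from 3, 2 and 1 counts, and every Fb-Skn library had 0 counts. All Fb-Epn libraries lay above all others, while the counts of Fb-Par were within what 3 counts per library can show. The ratio of Fb-Epn to Fb-Par, from counts scaled by effective library size, was 18.3 with an exact 95% counting interval of 8.15 to 50.9 (adjusted p = 5.1e-06, edgeR). Against a floor of 3 counts in each Fb-Skn library, which is 0.137 to 0.157 TPM for this gene, *Cdh5* was higher in Fb-Epn by at least 10.8-fold (adjusted p = 9.3e-07, edgeR). Fb-Par and Fb-Skn were both at or under 3 counts in every library and no fold is given for them (adjusted p = 0.013, edgeR). These intervals and floors cover counting error only.

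*Tie1* (ENSRNOG00000020173, chromosome 5, 137294544 to 137321121, minus strand) encodes a receptor tyrosine kinase of endothelial cells that acts together with the angiopoietin receptor. Its TPM was 3.79, 4.78 and 4.00 in Fb-Epn and 0.558, 0.830 and 0.657 in Fb-Par. In Fb-Skn 1 library had 1 count and the others had 0. The levels fell in the order Fb-Epn, Fb-Par, Fb-Skn with no overlap between neighbours. The log2 fold change of Fb-Epn over Fb-Par was 2.63 with a standard error of 0.26 (adjusted p = 9.0e-07, edgeR), and the ratio of scaled counts was 6.28. Against Fb-Skn the ratio of counts was 262 for Fb-Epn with a counting interval of 46.7 to 10388 (adjusted p = 4.2e-09, edgeR). For Fb-Par it was 41.7 with an interval of 7.13 to 1683 (adjusted p = 7.6e-06, edgeR). The width of both intervals comes from the single count in Fb-Skn, in replicate 2. Without that library the log2 fold change went from 7.60 to 9.60 for Fb-Epn and from 4.97 to 6.97 for Fb-Par.

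*Tek* (ENSRNOG00000008587, chromosome 5, 113725717 to 113852799, plus strand) encodes Tie2, the receptor that angiopoietins bind. It was the most abundant endothelial marker, with a TPM of 8.69, 7.96 and 8.46 in Fb-Epn, 10.2, 10.7 and 9.58 in Fb-Par, and 1.25, 1.43 and 0.914 in Fb-Skn. Unlike *Cdh5* and *Tie1*, it was not called between the nerve-derived types. There the 3 Fb-Par libraries lay above the 3 Fb-Epn libraries by a log2 difference of 0.27, with a standard error of 0.11, and the adjusted p of 0.065 (edgeR) did not pass. *Tek* was 6.32-fold higher in Fb-Epn than Fb-Skn (log2 fold change 2.66, standard error 0.15, adjusted p = 1.1e-09, edgeR). In Fb-Par it was 7.62-fold higher than Fb-Skn (log2 fold change 2.93, standard error 0.14, adjusted p = 2.8e-10, edgeR). Per length, the level of *Tek* was 4.71 times that of *Cdh5* in Fb-Epn. Its level over that of *Tie1* was 2.0 in Fb-Epn and 14.9 in Fb-Par, so the receptors stood in a different ratio in the nerve-derived types, a difference between genes that was not tested.

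*Vwf* and *Emcn* were close to the limit of this depth. *Vwf* (ENSRNOG00000019689, chromosome 4, 158088505 to 158219523, plus strand), which encodes von Willebrand factor, a glycoprotein that endothelial cells store and release, had 11, 22 and 18 counts in Fb-Epn, 5, 1 and 6 in Fb-Par and 0, 4 and 1 in Fb-Skn. Its TPM was 0.248, 0.439 and 0.401 in Fb-Epn, at most 0.136 in Fb-Par and at most 0.0952 in Fb-Skn. The Fb-Epn libraries lay above all others, and Fb-Par overlapped Fb-Skn. Against Fb-Skn *Vwf* was called higher in Fb-Epn, 8.80-fold with a counting interval of 3.53 to 28.2 (adjusted p = 0.0021, edgeR). The size of this change rests on single libraries, with log2 fold changes from 2.44 without Fb-Skn replicate 1 to 4.61 without Fb-Skn replicate 2. The call was lost without Fb-Epn replicate 2 (adjusted p = 0.011), without Fb-Skn replicate 1 (0.012), without Fb-Skn replicate 3 (0.013) and with limma on log2(TPM + 1) (0.012). Against Fb-Par the log2 difference of 2.01 with a standard error of 0.60 did not pass (adjusted p = 0.012, edgeR), and without Fb-Skn replicate 1 it did (0.0091). Fb-Par and Fb-Skn did not differ detectably at this depth (log2 difference 1.03, standard error 0.89, adjusted p = 0.35, edgeR), and that value ran from 0.43 without Fb-Skn replicate 1 to 2.60 without Fb-Skn replicate 2.

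*Emcn* (ENSRNOG00000022910, chromosome 2, 242634399 to 242714182, plus strand) encodes endomucin, a sialoglycoprotein of capillary and venous endothelium. It had 3, 4 and 0 counts in Fb-Epn, 3, 0 and 0 in Fb-Par and 0 in all Fb-Skn libraries. The nerve-derived types overlapped, and the ratio of their counts was 2.27 with an interval of 0.517 to 13.6, which includes equal levels. No difference was detectable for this gene.

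The partners of *Tie1* and *Tek* were measured as a list of 5 further genes, the angiopoietins *Angpt1*, *Angpt2* and *Angpt4*, the phosphatase *Ptprb* that acts on Tie2, and *Svep1*, a secreted protein that binds Tie1. All 5 were higher in Fb-Epn than Fb-Skn, and 3 were higher in Fb-Epn than Fb-Par with 0 lower. Over all tested genes the shares called higher in Fb-Epn were 23.0% and 20.2%. Fb-Par against Fb-Skn had 2 higher in each direction, beside 23.2% and 22.4% of all tested genes. The median log2 fold change of the list was 0.99, 2.23 and 0.625 in Fb-Epn against Fb-Par, Fb-Epn against Fb-Skn and Fb-Par against Fb-Skn, beside -0.000184, -0.00284 and -0.0121 for all tested genes. *Angpt4* had a TPM of 51.7, 47.1 and 49.3 in Fb-Epn, 1.88, 1.99 and 0.775 in Fb-Par, and 3.47, 3.16 and 2.51 in Fb-Skn. It thus stood apart in Fb-Epn, 32.0-fold above Fb-Par (log2 fold change 4.99, standard error 0.19, adjusted p = 1.3e-11, edgeR) and 14.6-fold above Fb-Skn (adjusted p = 7.2e-11, edgeR). *Angpt1*, which activates Tie2 and is known as a product of mural and mesenchymal cells, had a TPM of 31.1, 33.0 and 31.5 in Fb-Epn, 13.7, 17.1 and 17.8 in Fb-Par and 4.37, 5.002 and 6.39 in Fb-Skn. Every step of that order was called, with log2 fold changes of 0.99 for Fb-Epn over Fb-Par (adjusted p = 9.7e-06, edgeR) and 1.47 for Fb-Par over Fb-Skn (adjusted p = 7.6e-07, edgeR). *Angpt2* was low, with 13 to 28 counts per library in Fb-Epn, 6 to 13 in Fb-Par and 2 to 6 in Fb-Skn, and was called for Fb-Epn over Fb-Skn at 4.83-fold (adjusted p = 0.0020, edgeR). It passed the filter through the nerve-derived libraries, so it could hardly have been called higher in Fb-Skn. *Ptprb* was 4.80-fold higher in Fb-Epn than Fb-Par (adjusted p = 1.3e-08, edgeR) and 2.98-fold higher than Fb-Skn (adjusted p = 4.0e-07, edgeR). *Svep1* was the most abundant of the list, with a mean TPM of 112 for Fb-Epn, 123 for Fb-Par and 72.1 for Fb-Skn.

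Of 35 further endothelial genes, 16 passed the filter. In Fb-Epn 8 of the 16 were higher and 3 lower than Fb-Par, and 11 were higher and 4 lower than Fb-Skn, while Fb-Par against Fb-Skn had 5 higher and 3 lower. Over all tested genes the shares higher and lower were 20.2% and 18.6%, 23.0% and 20.9%, and 23.2% and 22.4%. Part of this is set by the filter, since 5 of the 16 had under 10 counts in every library outside Fb-Epn, and of all 126 such genes 93.7% were called higher in Fb-Epn than Fb-Par and 92.1% than Fb-Skn. The median log2 fold change of the 16 was 0.958, 1.62 and -0.0354 in these comparisons. *Ptprb* is counted in this list as well. *Selp*, *Lyve1* and *Plvap* are named for their large changes toward Fb-Epn, and all were low. *Selp*, a selectin stored with von Willebrand factor, had a TPM of 1.81, 1.66 and 2.23 in Fb-Epn, with no library of another type above 3 counts, a ratio of 18.5 to Fb-Par with an interval of 7.64 to 58.1 (adjusted p = 1.4e-05, edgeR). *Lyve1*, a hyaluronan receptor of lymphatic endothelium and of some macrophages, had 15, 19 and 19 counts in Fb-Epn, with no library of another type above 3 counts (ratio to Fb-Par 17.2, interval 5.56 to 85.9, adjusted p = 4.3e-04, edgeR). *Plvap*, a diaphragm protein of fenestrated endothelium, had 13, 18 and 11 counts in Fb-Epn, 4, 2 and 4 in Fb-Par and 0 in Fb-Skn, and was 4.08-fold higher in Fb-Epn than Fb-Par (adjusted p = 0.0057, edgeR).

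Other genes of the list went otherwise. *Eng*, a coreceptor of the TGF-beta family with the highest mean TPM of the list over all 9 libraries, though not in Fb-Epn alone, had a TPM of 82.5, 71.1 and 79.0 in Fb-Epn, 184, 179 and 171 in Fb-Par, and 162, 165 and 178 in Fb-Skn. Fb-Epn was 2.29-fold below Fb-Par (adjusted p = 1.0e-10, edgeR) and Fb-Par overlapped Fb-Skn (adjusted p = 0.25). *Cd34*, a sialomucin that fibroblasts also carry, had a TPM of 8.02, 7.59 and 8.15 in Fb-Epn, 20.1, 22.6 and 19.8 in Fb-Par, and 2, 2 and 1 counts in Fb-Skn. It was 2.61-fold higher in Fb-Par than Fb-Epn (adjusted p = 8.2e-07, edgeR). *Clec14a*, a lectin of endothelium, was 2.72-fold higher in Fb-Par than Fb-Epn (adjusted p = 1.7e-05, edgeR), and *Flt1*, a receptor of VEGF, was 3.14-fold higher in Fb-Skn than Fb-Par (adjusted p = 2.8e-07, edgeR). *Egfl7*, a secreted endothelial protein, was 2.24-fold higher in Fb-Skn than Fb-Par (adjusted p = 9.9e-06, edgeR). *Erg*, an ETS transcription factor of endothelium, matched *Tek* in having no call between the nerve-derived types (log2 difference -0.12, adjusted p = 0.66, edgeR) and calls against Fb-Skn in both (3.20-fold, adjusted p = 2.4e-05, and 3.47-fold, adjusted p = 1.1e-05). The genes of this list thus split in direction. The 35 genes summed to a mean TPM of 237.5 for Fb-Epn, 310.9 for Fb-Par and 268.4 for Fb-Skn. That sum was lowest in Fb-Epn, unlike the sum of the endothelial markers.

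Macrophage and leukocyte markers were compared as a further list. All 9 of 9 tested genes of that list were higher in Fb-Epn than Fb-Par and than Fb-Skn, and 8 of 9 were higher in Fb-Par than Fb-Skn, with median log2 fold changes of 2.02, 3.96 and 1.80. Over all tested genes the shares called higher in these directions were 20.2%, 23.0% and 23.2%. *Adgre1*, *Aif1* and *Cd163* had under 10 counts in every Fb-Skn library and passed the filter through other libraries. The list summed to 1333, 1309 and 1381 TPM in Fb-Epn, 278, 253 and 265 in Fb-Par, and 80.6, 85.8 and 80.4 in Fb-Skn. *Lyz2*, lysozyme of myeloid cells, was the most abundant, at 962, 930.4 and 979 TPM in Fb-Epn. None of the 9 genes was at 0 in all libraries of a type, and *Cd163*, a scavenger receptor of macrophages, had 182, 217 and 194 counts in the Fb-Epn libraries, 5, 0 and 0 in Fb-Par and 8, 7 and 3 in Fb-Skn. *Fabp4*, which adipocytes, macrophages and capillary endothelium make, was the only tested gene of 5 adipocyte markers with a mean TPM of 51.4 for Fb-Epn, 16.4 for Fb-Par and 0.498 for Fb-Skn. *Lep* of the same list, too low to be tested, ran the other way, with 13, 8 and 15 counts in Fb-Skn and 0 in every nerve-derived library. The adipocyte list summed to 44.1, 53.3 and 58.1 TPM in Fb-Epn, 17.0, 16.2 and 16.7 in Fb-Par, and 1.28, 1.45 and 1.26 in Fb-Skn. In each type 2 of its 5 genes were at 0 in all libraries. These were *Lep* and *Cidec* in Fb-Epn and Fb-Par, and *Plin1* and *Cidec* in Fb-Skn. Whether macrophages, leukocytes or adipocytes were in the cultures, or had a part in the values of the endothelial markers, was not tested.

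**Figure D2:**
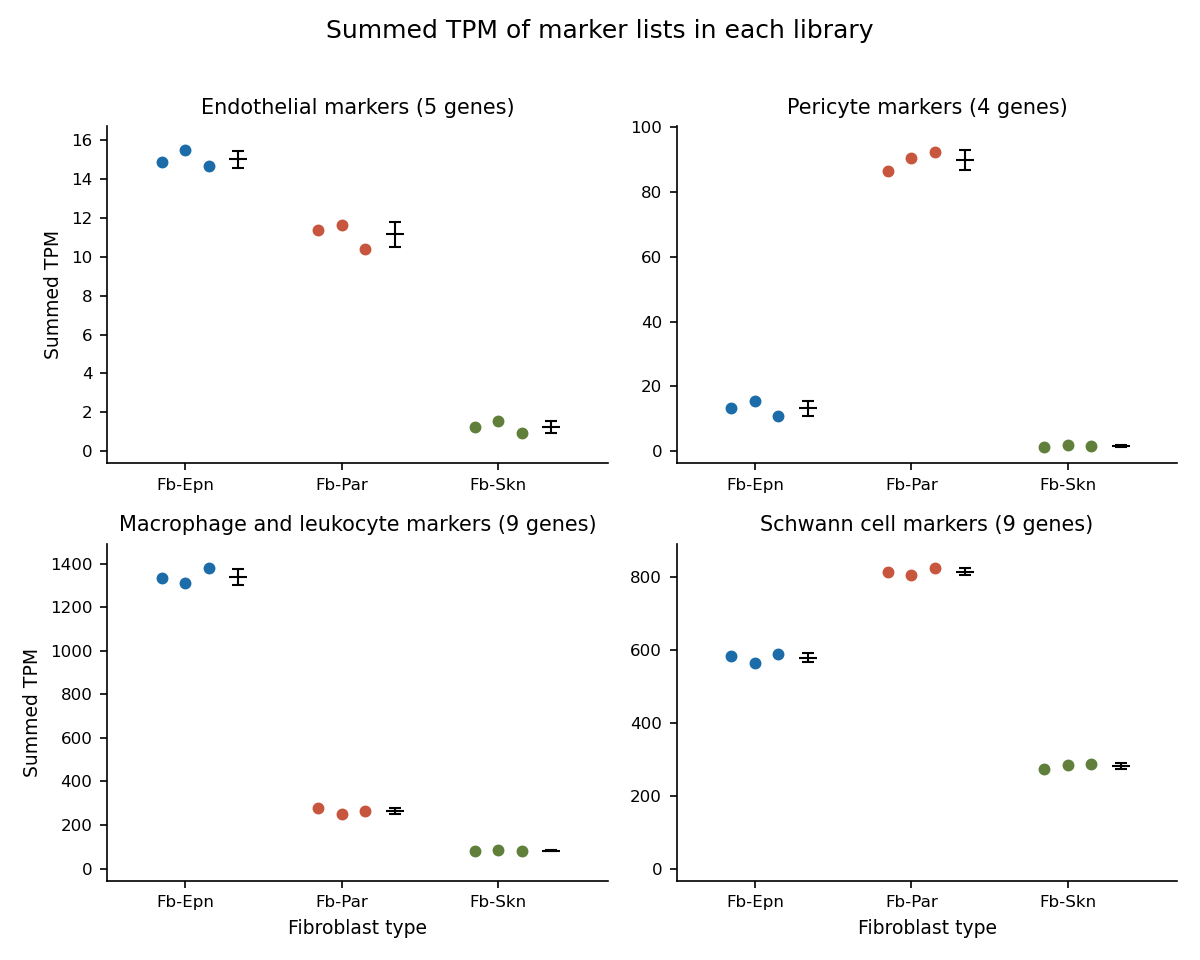
Summed deposited TPM (vertical axes) of the endothelial markers, the pericyte markers, 9 macrophage and leukocyte markers and 9 Schwann cell markers by fibroblast type (horizontal axes). Points are single libraries and the black marks give the mean and SD of 3. Of these lists, the endothelial and macrophage sums are highest in Fb-Epn, and the pericyte and Schwann cell sums are highest in Fb-Par. Sums of the further endothelial and mural genes, which are not drawn, have other orders and are given in the text.

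*Rgs5* (ENSRNOG00000002730, chromosome 13, 87966758 to 88003035, plus strand) encodes a regulator of G protein signaling that speeds the turn-off of G proteins and is a common marker of pericytes. Its TPM was 3.65, 6.46 and 3.37 in Fb-Epn and 12.04, 16.0 and 16.7 in Fb-Par, from 14 to 30 and from 54 to 68 counts. All Fb-Skn libraries had 0 counts, where 3 counts would be 0.673 to 0.771 TPM. The Fb-Par libraries lay above the Fb-Epn libraries, and replicate 2 of Fb-Epn lay above the other Fb-Epn libraries. *Rgs5* was 3.21-fold higher in Fb-Par than Fb-Epn, short of the DE threshold (log2 fold change -1.70 for Fb-Epn against Fb-Par, standard error 0.30, adjusted p = 5.1e-04, edgeR). Without Fb-Epn replicate 2 it passed that threshold, at -2.06. Against the floor in Fb-Skn it was at least 18.2-fold higher in Fb-Par (adjusted p = 2.9e-07, edgeR) and higher in Fb-Epn by at least 5.55-fold (adjusted p = 1.4e-05, edgeR).

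Between the nerve-derived types, most tested relatives of *Rgs5* were called in the other direction. Of 9 further genes of its R4 family 7 were tested, and 5 were higher in Fb-Epn than Fb-Par with 0 lower, at a median log2 fold change of 1.58. Against Fb-Skn, 5 were higher and 1 lower in Fb-Epn (median 1.71), and 3 were higher and 2 lower in Fb-Par (median -0.114). Over all tested genes 20.2% were higher and 18.6% lower in Fb-Epn against Fb-Par. Against Fb-Skn these shares were 23.0% and 20.9% for Fb-Epn, and 23.2% and 22.4% for Fb-Par. *Rgs4* had a TPM of 41.6, 41.0 and 41.6 in Fb-Epn, 14.9, 14.6 and 15.8 in Fb-Par, and 3.46, 2.59 and 3.86 in Fb-Skn. It was 2.76-fold higher in Fb-Epn than Fb-Par (adjusted p = 3.1e-09, edgeR). *Rgs16*, the most abundant of the list in the nerve-derived types, was 3.47-fold higher in Fb-Epn than Fb-Par (adjusted p = 6.8e-12, edgeR), and *Rgs2* was 5.23-fold higher (adjusted p = 3.4e-10, edgeR). *Rgs18* and *Rgs1*, known from blood cells, were also higher in Fb-Epn than Fb-Skn, *Rgs18* at least 8.62-fold against 0 counts in Fb-Skn (adjusted p = 1.2e-05, edgeR). Both had almost no counts in Fb-Skn and passed the filter through other libraries. *Rgs5* was therefore the only tested gene of the family with a call toward Fb-Par between the nerve-derived types, *Rgs1* and *Rgs8* having no call there.

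*Kcnj8* (ENSRNOG00000013463, chromosome 4, 176782498 to 176789304, minus strand) encodes Kir6.1, the pore of the ATP-sensitive potassium channel of mural cells, and *Abcc9* (ENSRNOG00000036960, chromosome 4, 176805431 to 176922424, minus strand) encodes SUR2, its sulfonylurea receptor subunit. The genes are neighbours in rn6, with 16126 bases and 0 annotated genes between them. *Kcnj8* had a TPM of 1.02, 1.19 and 1.09 in Fb-Epn and 1.16, 1.17 and 1.35 in Fb-Par, from 13 to 17 counts, and 0 counts in every Fb-Skn library. *Abcc9* had a TPM of 1.22, 1.52 and 1.04 in Fb-Epn and 1.02, 1.70 and 1.23 in Fb-Par, from 38 to 62 counts, with 1, 0 and 1 counts in Fb-Skn. The subunits stood at nearly the same level per length, with *Abcc9* over *Kcnj8* at 1.15 in Fb-Epn and 1.07 in Fb-Par. The nerve-derived types overlapped for both genes, with a log2 difference of -0.14 and standard error of 0.34 for *Kcnj8* (adjusted p = 0.77, edgeR) and of -0.04 and 0.27 for *Abcc9* (adjusted p = 0.93, edgeR). Counting intervals allowed the ratio of Fb-Par to Fb-Epn to lie between 0.713 and 1.70 for *Kcnj8* and between 0.799 and 1.29 for *Abcc9*. Against Fb-Skn both were DE in both nerve-derived types with edgeR, while limma on log2(TPM + 1) called them with log2 fold changes of 1.07 to 1.17, under the DE threshold. *Kcnj8* was higher in Fb-Epn by at least 4.19-fold (adjusted p = 2.3e-05, edgeR) and at least 4.63-fold higher in Fb-Par (adjusted p = 1.5e-05, edgeR). *Abcc9* had a ratio of 62.1 in Fb-Epn, with an interval of 16.9 to 518 (adjusted p = 2.4e-07, edgeR), and of 63.0 in Fb-Par, with an interval of 17.1 to 525 (adjusted p = 2.0e-07, edgeR). Their paralogs were at the floor, as *Kcnj11* had 0 counts in all 9 libraries and *Abcc8* at most 2 in any.

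Since *Kcnj8* and *Abcc9* lay at like levels and *Notch3* was the most abundant marker in Fb-Par, the sequences around their starts are shown. RefSeq promoters of build GRCr8, 250 bases before to 50 after each gene's start, were matched by symbol for 6 of the 10 markers (*Tie1*, *Emcn*, *Rgs5*, *Kcnj8*, *Abcc9* and *Notch3*). They were searched on both strands for 4 motifs, the core that the Notch effector RBPJ binds (TGGGAA), the GC box (GGGCGG), and the MEF2 and CArG motifs by name, all chosen after the values were seen. Of all 33469 promoters 25.7% held the RBPJ core, 33.1% the GC box, 3.29% the MEF2 motif and 1.64% the CArG motif. Among the 6 markers the RBPJ core was found in *Tie1* and *Notch3*, the GC box in each one except *Emcn*, the MEF2 motif in *Abcc9* and the CArG motif in 0. The promoters are chr4:177246499-177246798 (minus strand) for *Kcnj8*, chr4:177386299-177386598 (minus strand) for *Abcc9* and chr7:11834536-11834835 (minus strand) for *Notch3*, with capitals for every match of the 4 motifs. *Kcnj8* and *Abcc9* each held 1 GC box, and *Abcc9* also the MEF2 motif at bases 272 to 281. *Notch3* held 4 GC boxes, of which the last pair shares a base, and the RBPJ core at bases 293 to 298. A match describes these letters and says nothing of binding.
Kcnj8: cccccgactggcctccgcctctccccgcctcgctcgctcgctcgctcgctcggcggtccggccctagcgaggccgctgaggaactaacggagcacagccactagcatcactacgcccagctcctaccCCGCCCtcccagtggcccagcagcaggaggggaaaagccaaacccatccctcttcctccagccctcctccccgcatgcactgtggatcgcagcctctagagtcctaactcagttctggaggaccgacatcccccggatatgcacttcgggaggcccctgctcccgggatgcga
Abcc9: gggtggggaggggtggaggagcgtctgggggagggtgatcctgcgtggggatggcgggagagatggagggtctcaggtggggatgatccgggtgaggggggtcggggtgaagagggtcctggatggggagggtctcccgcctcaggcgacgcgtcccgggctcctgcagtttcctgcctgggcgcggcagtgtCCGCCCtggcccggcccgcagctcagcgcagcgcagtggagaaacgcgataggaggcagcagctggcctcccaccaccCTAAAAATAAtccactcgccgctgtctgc
Notch3: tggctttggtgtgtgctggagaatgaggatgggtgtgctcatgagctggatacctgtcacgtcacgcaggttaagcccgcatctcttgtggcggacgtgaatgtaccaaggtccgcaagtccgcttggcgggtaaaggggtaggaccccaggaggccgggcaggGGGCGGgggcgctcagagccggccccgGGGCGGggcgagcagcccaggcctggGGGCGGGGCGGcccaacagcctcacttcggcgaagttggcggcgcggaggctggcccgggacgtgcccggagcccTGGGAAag

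*Notch3* (ENSRNOG00000004346, chromosome 7, 14138495 to 14189688, minus strand) encodes the Notch receptor that is typical of mural cells, and was the marker with the widest range of TPM. Its TPM was 72.4, 71.7 and 73.3 in Fb-Par, 7.40, 6.36 and 5.27 in Fb-Epn, and 1.15, 1.87 and 1.63 in Fb-Skn. The 3 types were ordered without overlap, from 2488 to 2904 counts per library in Fb-Par, 196 to 272 in Fb-Epn and 46 to 65 in Fb-Skn. *Notch3* was 11.3-fold higher in Fb-Par than Fb-Epn (log2 fold change -3.50 for Fb-Epn against Fb-Par, standard error 0.095, adjusted p = 3.9e-13, edgeR). Over Fb-Skn it was 42.6-fold higher in Fb-Par (log2 fold change 5.41, standard error 0.12, adjusted p = 2.4e-14, edgeR) and 3.76-fold higher in Fb-Epn (log2 fold change 1.91, standard error 0.14, adjusted p = 3.9e-08, edgeR), the last short of the DE threshold. That value passed the threshold at 2.02 without Fb-Epn replicate 3 and at 2.06 without Fb-Skn replicate 2. An annotated gene on the opposite strand, *AABR07055864.2* (ENSRNOG00000060598, 14170546 to 14170818), lies within *Notch3* and had 164, 164 and 218 counts in Fb-Par, 25, 20 and 13 in Fb-Epn and 1, 7 and 0 in Fb-Skn. How the counting used strand is not stated, so reads of the pair in that stretch cannot be told apart. *Notch2* was the most abundant Notch receptor in Fb-Epn and Fb-Skn, and per length its level was 9.46 times that of *Notch3* in Fb-Epn, 25.3 times in Fb-Skn and 0.485 times in Fb-Par.

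The Notch pathway was measured as 16 genes besides *Notch3*, of which 12 were tested. Fb-Epn against Fb-Par had 3 higher and 6 lower, Fb-Epn against Fb-Skn 6 higher and 3 lower, and Fb-Par against Fb-Skn 6 higher and 5 lower, with median log2 fold changes of -0.696, 0.138 and 0.189. Over all tested genes the shares higher and lower were 20.2% and 18.6%, 23.0% and 20.9%, and 23.2% and 22.4%. Among the receptors, *Notch1* had a TPM of 8.92, 7.26 and 7.47 in Fb-Par, 1.94, 2.76 and 2.50 in Fb-Epn and 1.14, 0.949 and 1.40 in Fb-Skn, 3.26-fold higher in Fb-Par than Fb-Epn (adjusted p = 1.4e-07, edgeR). *Notch2* ran the other way, 1.72-fold higher in Fb-Epn than Fb-Par (adjusted p = 7.1e-10, edgeR). *Notch4*, a receptor of endothelium, had no call between the nerve-derived types (log2 difference 0.18, adjusted p = 0.57, edgeR) and was 3.86-fold higher in Fb-Epn than Fb-Skn (adjusted p = 4.6e-05, edgeR) and 3.42-fold higher in Fb-Par (adjusted p = 1.2e-04, edgeR).

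Among the ligands, *Jag1*, which endothelial cells present to the *Notch3* of mural cells, had a TPM of 111, 114 and 116 in Fb-Par, 18.5, 18.8 and 19.1 in Fb-Epn, and 76.3, 81.3 and 78.8 in Fb-Skn. Fb-Epn was thus the lowest for the ligand, 5.98-fold below Fb-Par (adjusted p = 6.3e-16, edgeR), while Fb-Skn was the lowest for the receptor. *Dll4*, the ligand of arterial endothelium, had 10, 9 and 7 counts in Fb-Epn and 0 in the other libraries, too few to be tested, at least 2.80-fold above the floor in Fb-Par and 2.49-fold above that in Fb-Skn. Among the targets, *Heyl*, a transcriptional repressor induced by Notch and a mural marker of its own, had a TPM of 12.5, 12.7 and 13.5 in Fb-Par, 2.86, 3.48 and 2.83 in Fb-Epn, and 0.788, 0.542 and 0.403 in Fb-Skn. It kept the order of *Notch3*, 4.16-fold higher in Fb-Par than Fb-Epn (adjusted p = 2.0e-08, edgeR) and 4.75-fold higher in Fb-Epn than Fb-Skn (adjusted p = 3.5e-07, edgeR). *Hey2* was 9.53-fold higher in Fb-Par than Fb-Epn (adjusted p = 3.2e-07, edgeR) and *Hey1* was 5.79-fold higher (adjusted p = 4.3e-05, edgeR), and neither was called between Fb-Epn and Fb-Skn (adjusted p = 0.85 and 0.93, edgeR). *Hes1* followed *Jag1* in having its lowest libraries in Fb-Epn, with a TPM of 25.9, 25.0 and 31.4 there, 84.0, 81.9 and 80.6 in Fb-Par, and 122, 127 and 118 in Fb-Skn, so that it was 1.65-fold higher in Fb-Skn than Fb-Par (adjusted p = 4.2e-07, edgeR). *Rbpj*, the DNA-binding partner of the receptors, was 1.68-fold higher in Fb-Epn than Fb-Par (adjusted p = 1.3e-08, edgeR), against the direction of *Notch3*.

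**Figure D3:**
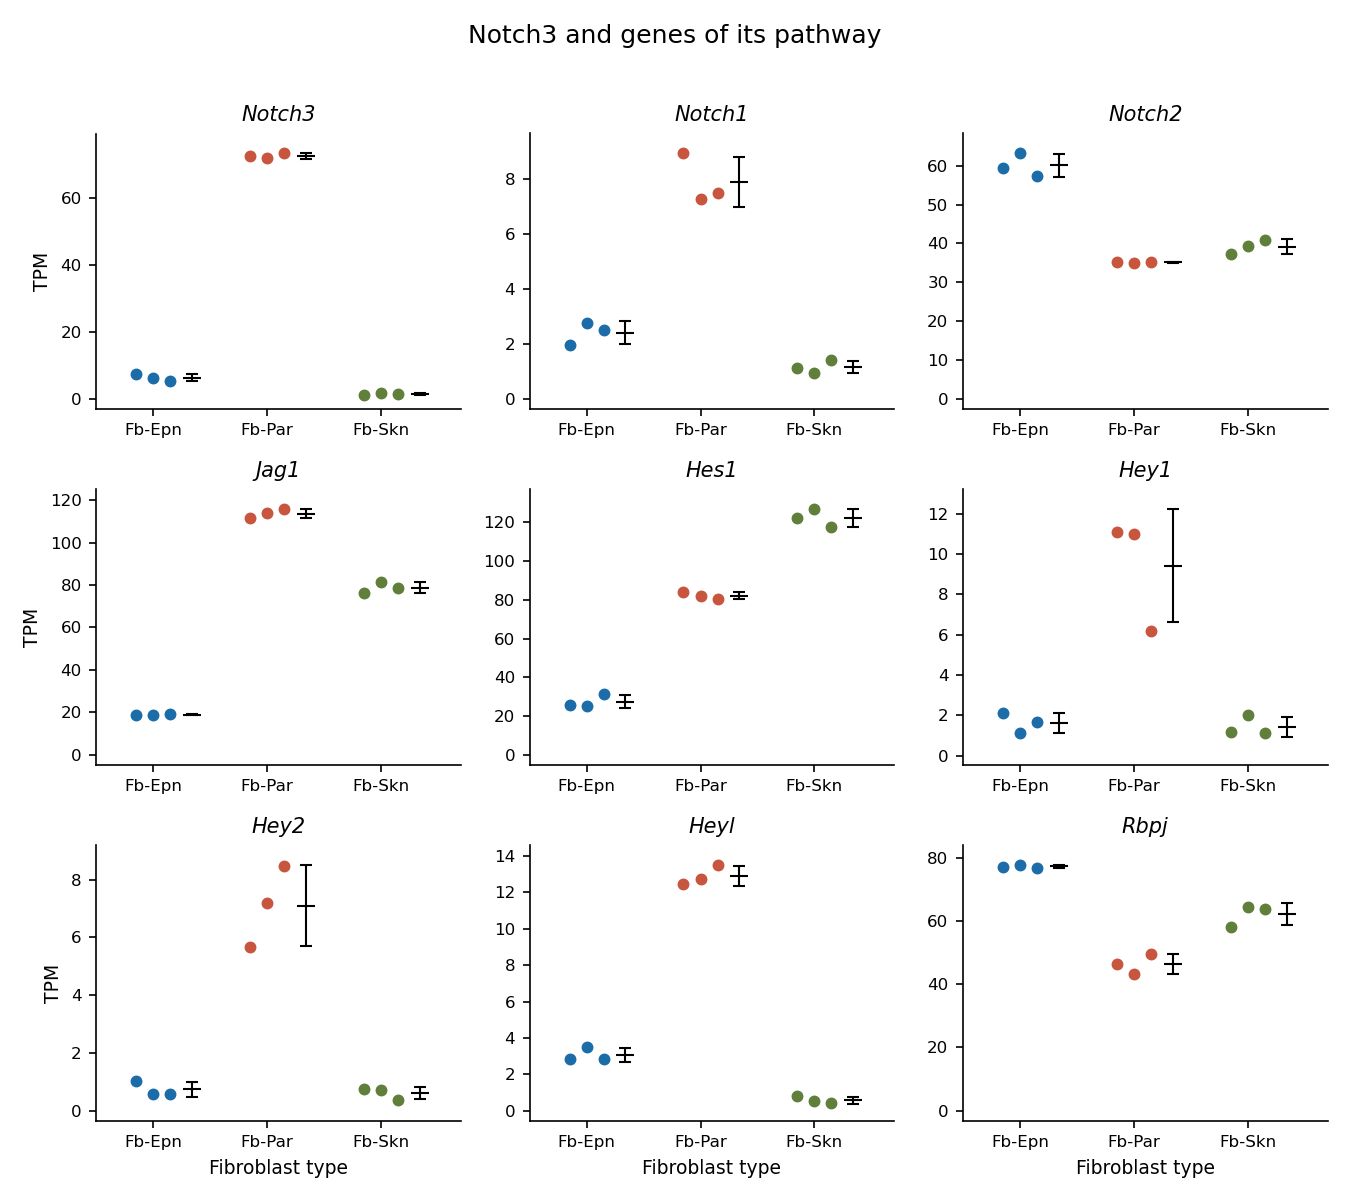
Deposited TPM of *Notch3* and 8 genes of its pathway (vertical axes, TPM) by fibroblast type (horizontal axes). Points are single libraries, 3 of each type, and the black marks give their mean and SD. *Notch1*, *Jag1*, *Hey1*, *Hey2* and *Heyl* share with *Notch3* their highest libraries in Fb-Par, while *Notch2* and *Rbpj* are highest in Fb-Epn and *Hes1* in Fb-Skn.

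Of 25 further mural genes, 23 were tested. Fb-Epn against Fb-Par had 4 higher and 18 lower, Fb-Epn against Fb-Skn 6 higher and 14 lower, and Fb-Par against Fb-Skn 12 higher and 10 lower, with median log2 fold changes of -1.01, -1.07 and 0.377. Over all tested genes the shares higher and lower were 20.2% and 18.6%, 23.0% and 20.9%, and 23.2% and 22.4%. *Heyl* is counted here as well. The 25 genes summed to a mean TPM of 9309.5 for Fb-Epn, 14747.9 for Fb-Par and 21784.8 for Fb-Skn. That sum was highest in Fb-Skn, unlike the sum of the pericyte markers. By these medians Fb-Epn lay below both other types, though 4 genes were higher than in Fb-Par and 6 higher than in Fb-Skn. The pericyte markers were instead lowest in Fb-Skn, where *Rgs5*, *Kcnj8* and *Abcc9* had almost no counts. The difference between the lists was not tested. *Tagln*, an actin-binding protein of contractile cells and myofibroblasts with the highest mean TPM of the list over all 9 libraries, though not in Fb-Skn alone, had a mean TPM of 5170.3 for Fb-Epn, 7837 for Fb-Par and 9818 for Fb-Skn. *Gucy1a1* and *Gucy1b1*, the subunits of the nitric oxide receptor, shared the pattern of *Notch3* on a wider scale. *Gucy1b1* had a TPM of 210, 216 and 214 in Fb-Par, 6.32, 6.52 and 9.49 in Fb-Epn and 1.77, 2.36 and 2.08 in Fb-Skn, 28.5-fold higher in Fb-Par than Fb-Epn (log2 fold change -4.83 for Fb-Epn against Fb-Par, standard error 0.095, adjusted p = 1.0e-14, edgeR). *Gucy1a1* was 40.2-fold higher in Fb-Par than Fb-Epn (adjusted p = 3.6e-15, edgeR) and 79.9-fold higher than Fb-Skn (adjusted p = 1.8e-15, edgeR). *Foxs1*, a forkhead factor of pericytes, had a TPM of 162, 156 and 156 in Fb-Par, 17.9, 16.1 and 15.7 in Fb-Epn and 1.31, 1.99 and 1.32 in Fb-Skn, 9.47-fold higher in Fb-Par than Fb-Epn (adjusted p = 1.2e-13, edgeR). *Art3* was 2.02-fold higher in Fb-Par than Fb-Epn (adjusted p = 2.5e-04, edgeR) and 12.1-fold higher in Fb-Epn than Fb-Skn (adjusted p = 3.7e-08, edgeR).

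A further set of mural genes was lowest in Fb-Par or highest in Fb-Skn. *Ndufa4l2*, a mitochondrial protein listed for pericytes, had a TPM of 96.9, 103 and 103 in Fb-Epn, 5.22, 8.27 and 4.04 in Fb-Par, and 255, 253 and 250 in Fb-Skn, 17.6-fold lower in Fb-Par than Fb-Epn (adjusted p = 1.9e-12, edgeR). *Cox4i2*, a cytochrome oxidase subunit with the same use as a marker, had 101 to 131 counts in Fb-Epn, 1 to 4 in Fb-Par and 96 to 108 in Fb-Skn, 47.9-fold higher in Fb-Epn than Fb-Par (adjusted p = 5.8e-10, edgeR). *Casq2*, a calcium-binding protein of muscle, was 20.6-fold higher in Fb-Skn than Fb-Par (adjusted p = 7.7e-13, edgeR), and *Trpc6*, a cation channel of smooth muscle, was 7.81-fold higher (adjusted p = 6.6e-11, edgeR). *Ndufa4l2* and *Cox4i2*, also used as pericyte markers, thus went against *Rgs5* and *Notch3* between the nerve-derived types. Of the 23 tested genes of the list, 18 were lower and 4 higher in Fb-Epn than Fb-Par.

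Schwann cell markers were also compared. Of 9 tested genes of that list, 8 were higher in Fb-Par than Fb-Epn and 0 lower, 8 were higher in Fb-Epn than Fb-Skn and 9 were higher in Fb-Par than Fb-Skn. Over all tested genes the shares called higher in these directions were 18.6%, 23.0% and 23.2%. The median log2 fold change was -1.11 in the first of these comparisons, and 4.24 and 5.35 against Fb-Skn with genes at 0 there taken at their bounds. The list summed to 584, 565 and 588 TPM in Fb-Epn, 813, 806 and 826 in Fb-Par, and 273, 284 and 288 in Fb-Skn. *Pmp22*, a myelin protein that fibroblasts also make, was the most abundant. The defining markers *Sox10*, *Erbb3* and *Cdh19* had 0 counts in all 3 Fb-Skn libraries. Of 6 perineurial markers 4 were tested, with 3 higher in Fb-Epn than Fb-Par and 0 lower, 2 higher and 1 lower in Fb-Epn against Fb-Skn, and 0 higher and 3 lower in Fb-Par against Fb-Skn. Over all 9 libraries, though not in Fb-Par alone, the list was led by *Slc2a1*, a glucose transporter also found in vessels with a blood barrier, at a mean TPM of 145 for Fb-Epn, 34.9 for Fb-Par and 69.0 for Fb-Skn. *Cldn1*, not tested, had 3, 0 and 2 counts in Fb-Epn, 4, 7 and 5 in Fb-Par and 0 in every Fb-Skn library. The perineurial list summed to 211, 211 and 216 TPM in Fb-Epn, 87.1, 91.0 and 95.2 in Fb-Par, and 116, 129 and 123 in Fb-Skn, with 1, 1 and 2 of its genes at 0 in all libraries of the type. Of 7 keratinocyte markers only *Krt10* was tested and it had no call. *Krt14*, too low to be tested, had 17, 9 and 10 counts in Fb-Skn against 1 in all of the nerve-derived libraries, and the list summed to at most 4.76 TPM in any library. The 9 genes of the fibroblast list had 5 higher and 4 lower in Fb-Epn against Fb-Par, 4 and 4 against Fb-Skn, and 6 higher and 3 lower in Fb-Par against Fb-Skn, and summed to 36235 to 36415 TPM in Fb-Epn, 29733 to 30633 in Fb-Par and 31909 to 33241 in Fb-Skn. For the perineurial and fibroblast counts, the shares over all tested genes were 20.2% higher and 18.6% lower in Fb-Epn against Fb-Par. Against Fb-Skn they were 23.0% and 20.9% for Fb-Epn, and 23.2% and 22.4% for Fb-Par. The part of Schwann cells in the values of the pericyte markers was not tested.

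The patterns of the tested markers were compared as Pearson's r of log2 CPM over the 9 libraries, a description in which libraries of a type lie together. *Kcnj8* and *Abcc9* had an r of 0.99 with each other, and *Tek* had 0.989 with *Kcnj8* and 0.974 with *Abcc9*. *Cdh5* and *Tie1* had an r of 0.93, *Rgs5* and *Notch3* one of 0.926, and *Cdh5* and *Notch3* the lowest of all pairs at 0.041. With *Cdh5* the r of *Tek* was 0.604. *Cdh5*, *Kcnj8* and *Abcc9* had few or no counts in Fb-Skn and passed the filter through the nerve-derived libraries. Their r is therefore set in part by the floor and does not place *Tek* with either cell type. Among all tested genes, those most like *Notch3* were *Dlc1* (r = 0.9988), *Dcbld2* (0.9984) and *Map1b* (0.997), and those most like *Rgs5* were *Cd38* (0.9954), *Prag1* (0.9951) and *Meox2* (0.9941). *Kcnj8* was most like *Fez1* (0.9993), *Anxa3* and *Nrp1* (0.9991 each), and *Abcc9* was most like *Nptxr* (0.9962), *Fmnl2* (0.9961) and *Foxj2* (0.9936). *Cdh5* was most like *Chdh* (0.9981), *Cebpd* (0.9971) and *Sirpa* (0.9969), and *Tie1* was most like *AABR07039446.2* (0.9983), *Col3a1* (0.997) and *Sfrp1* (0.9965). *Tek* was most like *Slitrk6* (0.9968), *Atf3* (0.9962) and *Arap3* (0.9956). *Vwf*, with its few counts, reached 0.9658 with *Ubr7*, 0.9513 with *Msc* and 0.9471 with *Nemp1*. *Sirpa*, a surface receptor of myeloid cells, had a mean TPM of 75.5 for Fb-Epn, 26.2 for Fb-Par and 18.0 for Fb-Skn, and *Map1b*, a microtubule protein of neurons, Schwann cells and mesenchymal cells, had 63.9, 116 and 39.9. *Chdh* and *Cebpd* ranked above *Sirpa* for *Cdh5*, and *Dlc1* and *Dcbld2* above *Map1b* for *Notch3*. *Col3a1*, next to the top for *Tie1*, belongs to the fibroblast list, with 13024.1, 8348.3 and 4469.2. Whether likeness reflects a shared cell type was not tested.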

How the data were processed

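RNA was measured in 9 libraries of 3 fibroblast types. The authors trimmed the reads, aligned them to rn6 with HISAT2 2.1.0 and, per the submitters' processing notes, counted them with featureCounts 1.6.3, and the annotation and strand settings are not given in the sources used here. The authors deposited raw counts per gene and TPM of the same 32883 genes, and a table of FPKM was not used. Groups come from the sample labels. The labels do not say that equal replicate numbers share an animal, so libraries were not paired.

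Counts were analysed in R 4.3.3 with edgeR 4.0.16 (TMM factors of 0.955 to 1.03, default expression filter, quasi-likelihood F test, 1 model of all 9 libraries), with p-values adjusted by the Benjamini-Hochberg method over 13273 genes. Total counts per library ranged from 10084584 to 12310506, and the common biological coefficient of variation was 8.25%. Libraries of a type differed beyond sampling noise (chi-square per degree of freedom of 3.31 to 5.48). Where a type had 0 counts in all libraries the fold was taken against 3 counts per library, and where it had 1 to 3 counts the ratio was given with an exact conditional 95% interval. Folds are ratios of counts scaled by effective library size and can differ from the log2 fold changes, which come from the edgeR fit. Exact permutation of 3 against 3 libraries cannot go under a two-sided p of 0.10.

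The named genes are the 10 markers and their list partners. From the other lists they are the most abundant gene, the 2 genes with the largest called change in each direction of each comparison (mean TPM of at least 1 in the higher type), and markers at 0. *Lep*, *Krt14* and *Cldn1* were named after their values were seen. By likeness they are the 3 genes with the highest r per marker. The markers and lists were chosen with earlier results of these data known. Alternatives used DESeq2 1.42.0, limma 3.58.1, other scalings, filters and thresholds, the replicate block and each library left out. Tables were made with Python 3.11.15 and pandas 2.3.3, and the edgeR fit was run on simulated counts with known changes, which it found along with a few false calls.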

Additional observations from a re-analysis of the deposited data

How the results depend on the processing

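The calls and log2 fold changes of the 8 tested markers were computed under 19 other settings, of which 9 each left out 1 library. Of 436 values, 425 kept their direction and their side of the adjusted p threshold. This tally does not count the log2 threshold of DE, which some values crossed, as with limma on log2(TPM + 1), where *Cdh5* went from 4.11 to 1.34 and *Tie1* from 2.63 to 1.62 in Fb-Epn against Fb-Par, and *Cdh5* from 8.16 to 1.47 in Fb-Epn against Fb-Skn, *Tie1* from 4.97 to 0.73 in Fb-Par against Fb-Skn, and *Kcnj8* and *Abcc9* in both comparisons with Fb-Skn also fell under 2. Both reversals were of *Abcc9* between Fb-Epn and Fb-Par, which was not called, with a log2 difference of 0.08 without Fb-Epn replicate 3 and 0.18 without Fb-Par replicate 2, and -0.20 at the other end without Fb-Epn replicate 2. The 4 losses were those of *Vwf* in Fb-Epn against Fb-Skn, and of the 5 gains 4 were of *Vwf* in Fb-Epn against Fb-Par and 1 of *Cdh5* in Fb-Par against Fb-Skn at an adjusted p under 0.05 (edgeR, 0.013). Where every library had to have 10 counts or more, only *Tek* and *Notch3* could be tested, which left 1, 2 and 2 markers called in Fb-Epn against Fb-Par, Fb-Epn against Fb-Skn and Fb-Par against Fb-Skn. When single libraries were left out there were 4 to 5, 7 to 8 and 6 to 6 markers called, and 4449 to 5220, 5178 to 5829 and 5370 to 5989 genes called in all. With the replicate number as a block, 4859, 5580 and 5799 genes and 4, 8 and 6 markers were called, but deviations of libraries with the same number had a correlation of -0.08 to 0.02, and those with different numbers one of -0.045 to 0.089, which overlap. Depth limits *Vwf* and *Emcn* in every type, *Cdh5* outside Fb-Epn, and *Tie1*, *Rgs5*, *Kcnj8* and *Abcc9* in Fb-Skn.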
